A study of Mus musculus with 6 samples.

Results

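The 10 genes described here encode the neuregulin growth factor Nrg1, its receptor family (Erbb2, Erbb3, Erbb4), the Hippo pathway kinases Stk3, Lats1 and Lats2, the coactivators Yap1 and Wwtr1 (TAZ), and their DNA-binding partner Tead1. They were chosen by name as members of either pathway, with earlier results of these data known. All 10 were among the 20121 genes in the deposited count tables, and all 10 passed the filter on low counts that left 14877 genes for testing. Whole hearts of pups aged 14 days were sequenced, all from mice of mixed ICR and C57BL/6 descent. The mutant group, labelled Myh6-Cre; TRalphaAMI, held 3 pups with Cre driven by the Myh6 promoter, and so made in heart muscle, together with a knock-in allele that yields a dominant negative thyroid hormone receptor alpha once Cre has acted. The control group, labelled TRalphaAMI, held 3 littermates with the same allele and no Cre. No group carried Myh6-Cre alone, so effects of Cre and of the altered receptor cannot be told apart. Every p-value given rests on the spread among these 6 hearts.

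Neuregulins are made mainly by endothelial and endocardial cells of the heart and bind Erbb4 or Erbb3 on neighbouring cells. Erbb2 binds no known ligand and acts as the partner of a ligand-bound receptor, while Erbb3 has little kinase activity and signals through its partner. In mice, Erbb2 in heart muscle is known to decline in the first days after birth, when muscle cells stop dividing. In the Hippo pathway, Stk3 and Stk4 activate Lats1 and Lats2, which phosphorylate Yap1 and TAZ and keep them out of the nucleus. When that brake is off, Yap1 and TAZ bind TEAD factors and raise genes of growth and division. Counts of RNA per gene do not show phosphorylation or where a protein is in the cell.

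The libraries held 43314706 to 62095277 counts. Levels are given as CPM, counts scaled to 1000000 per library after TMM normalization, which removes differences in library composition. Such a difference was present, since transcripts of the mitochondrial genome took 16.7% to 18.8% of counts in mutant hearts and 22.3% to 24.8% in control hearts. With TMM the median gene had a log2 fold change of -0.00, and with library totals alone it was shifted by 0.28 towards mutant hearts, so that fold changes smaller than this depend on the scaling. Heart muscle genes such as Tnnt2 were abundant in every heart, with means of 8626 CPM in mutant hearts and 8900 CPM in control hearts. Thra, the receptor gene, had 125 to 143 CPM in mutant hearts and 66.8 to 81.7 CPM in control hearts, and these counts pool the transcripts of both alleles.

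Of the 10 genes, 3 rose in mutant hearts (Erbb2, Tead1 and Lats2), 1 fell (Erbb3), and 6 did not pass the test (Nrg1, Erbb4, Yap1, Wwtr1, Lats1 and Stk3). Calls are from the quasi-likelihood test of edgeR at a threshold of 0.05 on the adjusted p, by the Benjamini-Hochberg method over all genes. Over all 14877 genes, 37.5% passed in either direction, 18.1% as higher and 19.5% as lower, so the share of the 10 genes that passed (40%) is near the background. The median log2 fold change of the 10 was 0.14. With library totals only, 8 of the 10 were higher and 1 lower, while over all genes 86.1% of the calls were then higher, against 48.1% with TMM. The groups did not overlap for 5 of the 10, which are the 4 called genes and Yap1, beside 49.8% of all genes tested. The fitted fold changes furthest from 0 were those of Erbb3 and Erbb2, as the plot of CPM by heart shows.

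**Figure D1:**
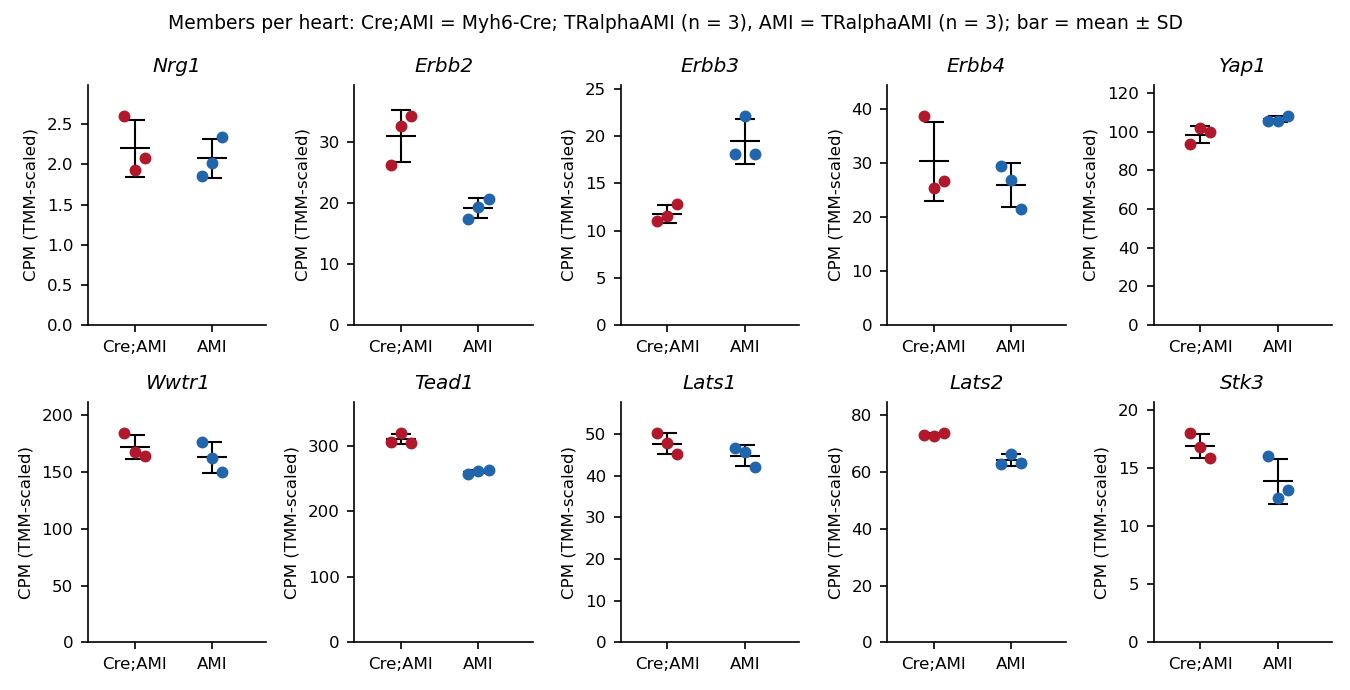
CPM with TMM scaling (vertical axes, from 0) of each of the 10 genes in 3 Myh6-Cre; TRalphaAMI hearts (red, left, labelled Cre;AMI) and 3 TRalphaAMI hearts (blue, right, labelled AMI), with mean and SD. For Erbb2 the mutant hearts sit between 26.2 and 34.3 CPM, above the control hearts at 17.4 to 20.8 CPM, while for Erbb3 they sit below.

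Sequences around the transcription start were available for 6 of the 10 genes from RefSeq, build GRCm38.p6, as windows of 300 bases (250 before the start and 50 after). The promoters of Erbb2, Lats2, Yap1 and Wwtr1 are shown because each holds the letters GGAATG, the core that TEAD factors are known to bind, and because Erbb2 and Lats2 rose while the genes of the coactivators did not pass the test. The windows are chr11:98412234-98412533 on the plus strand for Erbb2, chr14:57746074-57746373 on the minus strand for Lats2, chr9:8004547-8004846 on the minus strand for Yap1 and chr3:57575861-57576160 on the minus strand for Wwtr1. Each is written 5′ to 3′ in the direction of the gene, with GGAATG in capitals.
Erbb2: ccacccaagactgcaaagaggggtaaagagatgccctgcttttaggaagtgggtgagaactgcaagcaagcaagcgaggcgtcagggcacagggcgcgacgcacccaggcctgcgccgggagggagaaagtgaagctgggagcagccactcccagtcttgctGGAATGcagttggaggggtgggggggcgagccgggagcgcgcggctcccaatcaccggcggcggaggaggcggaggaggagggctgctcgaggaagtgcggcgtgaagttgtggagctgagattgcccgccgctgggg
Lats2: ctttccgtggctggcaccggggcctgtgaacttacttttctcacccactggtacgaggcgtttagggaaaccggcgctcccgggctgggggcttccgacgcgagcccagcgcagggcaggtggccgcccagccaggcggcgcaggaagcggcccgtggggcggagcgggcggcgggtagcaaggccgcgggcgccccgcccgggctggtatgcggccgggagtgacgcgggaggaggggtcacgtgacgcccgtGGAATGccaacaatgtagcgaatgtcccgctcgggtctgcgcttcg
Yap1: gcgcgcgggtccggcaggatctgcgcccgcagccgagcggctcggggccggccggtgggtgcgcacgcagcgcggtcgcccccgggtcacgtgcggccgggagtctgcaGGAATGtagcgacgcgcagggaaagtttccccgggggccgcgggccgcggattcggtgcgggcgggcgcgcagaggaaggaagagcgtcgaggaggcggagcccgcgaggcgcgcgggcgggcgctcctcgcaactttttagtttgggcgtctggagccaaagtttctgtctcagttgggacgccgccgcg
Wwtr1: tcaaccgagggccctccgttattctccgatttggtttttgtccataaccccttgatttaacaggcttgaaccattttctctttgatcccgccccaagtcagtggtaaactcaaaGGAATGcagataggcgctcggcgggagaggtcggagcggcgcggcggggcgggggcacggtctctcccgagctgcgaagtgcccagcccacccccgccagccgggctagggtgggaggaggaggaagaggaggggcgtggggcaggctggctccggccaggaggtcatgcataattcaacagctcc

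Both strands were searched for GGAATG, which reads as CATTCC on the other strand. The match lay 88 bases before the start in Erbb2, 141 bases before it in Yap1 and 136 bases before it in Wwtr1, and began just after the start in Lats2. That Lats2 window ends at base 57746373. It lies inside the GENCODE M21 gene model, which begins at base 57758388 on the minus strand. Neither Erbb4 nor Lats1 had a match in its window. In all, 4 of the 6 genes with a window held a match, against 16.6% of the 27025 genes in the table. The half-site AGGTCA, which reads as TGACCT on the other strand and to which thyroid hormone receptors are known to bind, was present in 1 of the 6 genes, Wwtr1, against 18.1% of genes in the table. By window, GGAATG stood in 5 of the 8 for these genes, against 14.7% of all 32851, and AGGTCA in 2 of the 8, against 16.3%. A further window for Lats2 held neither motif, and a further one for Wwtr1 overlapped the first and held both. The Wwtr1 matches are the same bases in both windows, so the counts by window repeat them. These matches describe letters and not binding.

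Nrg1 (ENSMUSG00000062991, mm10 chromosome 8, 31814551 to 32884029, minus strand) was rare, with 98 to 132 counts in mutant hearts and 73 to 115 counts in control hearts. It had 2.61, 1.93 and 2.08 CPM in mutant hearts, against 1.86, 2.02 and 2.34 CPM in control hearts. The groups overlapped, and the log2 fold change of 0.08 ± 0.16 (SE) did not pass (edgeR adjusted p = 0.724). Its sign turned to -0.05 without mutant replicate 1. The other neuregulins in the tables were no more abundant, with means of 0.676 CPM in mutant and 0.597 CPM in control hearts for Nrg2 and 1.29 and 1.52 CPM for Nrg4, and neither passed the test. Nrg1 took 33.1% ± 3.5 of the summed RPKM of Nrg1, Nrg2 and Nrg4 in mutant hearts and 31.4% ± 5.2 in control hearts (SD, n = 3 each), a difference below the spread between hearts.

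Ligands of the related receptor Egfr changed in both directions. Btc (betacellulin), a ligand of both Egfr and Erbb4, had 4.82, 3.798 and 3.55 CPM in mutant hearts, against 1.20, 1.39 and 1.26 CPM in control hearts. It rose 3.15-fold (log2 fold change 1.65 ± 0.16 SE, edgeR adjusted p = 4.26e-05). Hbegf, which also binds Egfr and Erbb4, had 8.68, 8.66 and 10.02 CPM in mutant hearts and 13.6, 14.5 and 13.8 CPM in control hearts, and was 1.54-fold lower. These ligand genes moved apart, Btc and Tgfa up and Hbegf and Egf down, with no overlap between the groups for any of the 4. Tgfa, a ligand of Egfr, rose 2.38-fold to 2.34 CPM in mutant hearts, against 0.962 CPM in control hearts, and Egf was 1.80-fold lower. Hbegf, Egf and Tgfa were named after their values were seen.

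Among proteases that release such ligands or relatives of them, 3 rose, while Adam10 and Adam17 did not pass. Adam10 had means of 106 CPM in mutant and 103 CPM in control hearts (edgeR adjusted p = 0.723). Adam17 had 61.2 and 60.5 CPM (edgeR adjusted p = 0.889). Both were named after their values were seen. Adam19, a protease known to cut neuregulin, rose 1.97-fold, to 198, 262 and 259 CPM in mutant hearts, against 130, 123 and 112 CPM in control hearts. Adam9 rose 1.45-fold. Bace1, which also cuts neuregulin in nerves, rose 1.33-fold, though 32.5% of its exon bases lie over genes on the opposite strand, whose reads this kit does not tell apart. Of the 12 ligand and protease genes tested, 5 rose, 2 fell and 5 did not pass, with a median log2 fold change of 0.15, beside 18.1% and 19.5% of all genes. Macrophage markers were lower in mutant hearts for 5 of 6, with summed levels of 56.5 to 59.1 CPM in mutant and 85.0 to 95.3 CPM in control hearts and none at 0, and their part in these changes was not tested.

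Erbb2 (ENSMUSG00000062312, mm10 chromosome 11, 98412470 to 98437716, plus strand) had 26.2, 32.6 and 34.3 CPM in mutant hearts, against 17.4, 19.3 and 20.8 CPM in control hearts. Every mutant heart was above every control heart, with mutant replicate 1 the lowest of its group. The rise was 1.62-fold (log2 fold change 0.69 ± 0.11 SE, edgeR adjusted p = 0.000808). Erbb3 (ENSMUSG00000018166, chromosome 10, 128567523 to 128589652, minus strand) had 10.99, 11.6 and 12.8 CPM in mutant hearts, against 18.1, 22.1 and 18.1 CPM in control hearts. It was 1.65-fold lower with no overlap (log2 fold change -0.72 ± 0.10 SE, edgeR adjusted p = 0.000482). Both receptors kept their direction and their call under each scaling, test and left-out heart that was run.

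Erbb4 (ENSMUSG00000062209, chromosome 1, 68032186 to 69108059, minus strand), the receptor of neuregulin in heart muscle, had 38.6, 25.4 and 26.7 CPM in mutant hearts, against 29.3, 26.9 and 21.4 CPM in control hearts. Mutant replicate 1 was above all other hearts, and the other mutant hearts lay within the control range. The log2 fold change of 0.23 ± 0.16 (SE) did not pass (edgeR adjusted p = 0.312), and with library totals only it was 0.51 and passed (adjusted p = 0.0190 in the same edgeR test). Without mutant replicate 1 it was 0.01 (adjusted p = 0.949), and over the 6 left-out hearts it ranged up to 0.34 and never passed. Egfr had 17.4, 17.4 and 15.0 CPM in mutant hearts and 18.9, 19.1 and 15.5 CPM in control hearts and did not pass either.

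Shares within a heart do not depend on library scaling. Erbb2 took 43.7%, 53.2% and 54.0% of the summed RPKM of the 4 receptors in mutant hearts, against 32.2%, 33.0% and 39.5% in control hearts. Erbb3 took 15.9%, 16.3% and 17.5% in mutant hearts, against 28.9%, 32.7% and 29.8% in control hearts. Neither pair of groups overlapped, and Erbb2 was the most abundant of the 4 per length in every heart of both groups. The mean differences were 15.4 percentage points for Erbb2 and -13.9 for Erbb3. Exact two-sided permutation tests gave p = 0.1 for both, the smallest value that 3 hearts against 3 allow, and 0.267 after adjustment over the 8 shares tested. Erbb4 took 20.8% ± 5.5 in mutant hearts and 19.8% ± 2.8 in control hearts (SD, n = 3 each), a difference below the spread between hearts.

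**Figure D2:**
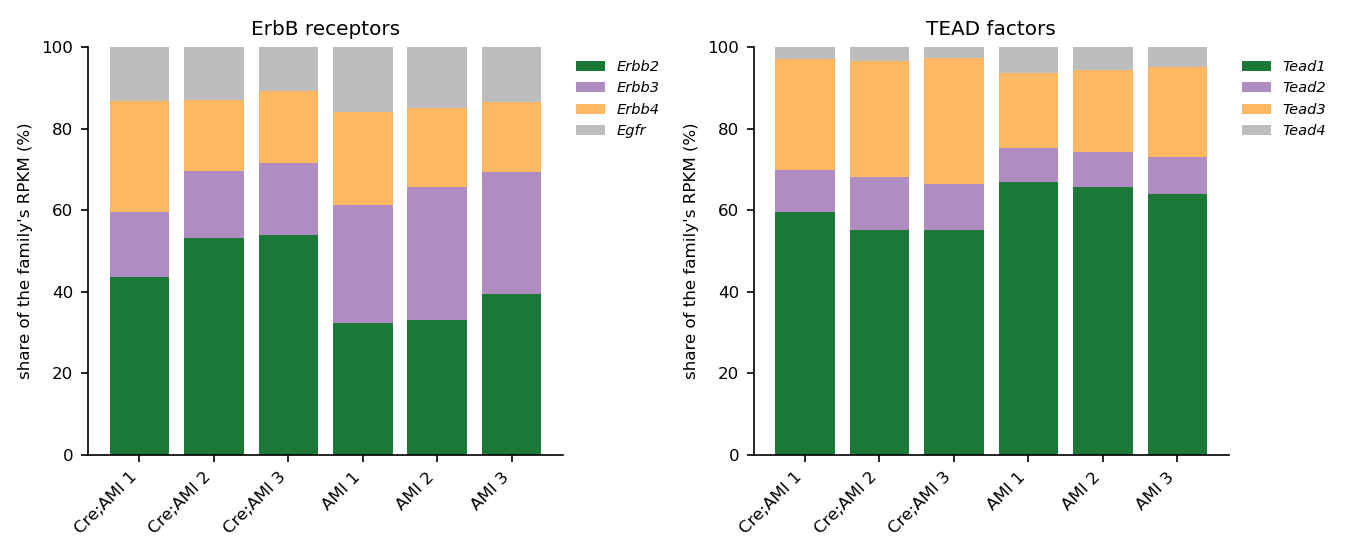
Share of the summed RPKM (vertical axis, percent) taken by each ErbB receptor gene (left panel) and each TEAD gene (right panel) in 3 Myh6-Cre; TRalphaAMI hearts (Cre;AMI, the 3 left bars of each panel) and 3 TRalphaAMI hearts (AMI, the 3 right bars). The Erbb2 share is 43.7% to 54.0% in mutant and 32.2% to 39.5% in control hearts, and the Tead1 share 55.1% to 59.7% in mutant and 64.1% to 66.9% in control hearts.

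Markers of the cells that use these receptors moved as follows, beside 18.1% of all genes tested that were higher and 19.5% that were lower. In whole hearts, fewer cells of a type and less RNA per cell cannot be told apart. Among Schwann cell markers, cells for which Erbb3 is known as the main neuregulin receptor, 1 of 7 tested was lower (Gfra3) and 6 did not pass. Their summed level was 22.5 to 28.0 CPM in mutant hearts and 23.1 to 24.1 CPM in control hearts. Endothelial and endocardial markers were lower for 5 of 8, with summed levels of 1161 to 1251 CPM in mutant and 1356 to 1460 CPM in control hearts and none at 0. Of the 5, Pecam1 (-0.21) and Kdr (-0.24) had log2 fold changes smaller in size than the 0.28 shift between scalings. Those of Tek (-0.31), Emcn (-0.34) and Flt1 (-0.44) were larger. Marker sums were made with TMM scaling only. Heart muscle markers were lower for 5 of 8, none at 0, with sums of 32058 to 33777 CPM in mutant and 68982 to 75656 CPM in control hearts, led by Myh6, which thyroid hormone is known to raise. Without Myh6 the sums were 28545 to 29955 CPM in mutant and 33850 to 36737 CPM in control hearts. Besides Myh6, the lower markers were Ryr2, Myl3, Pln and Myl2, with log2 fold changes of -1.09, -0.85, -0.35 and -0.21. Tnnt2, Actn2 and Ttn did not pass, with log2 fold changes of -0.05, 0.08 and -0.08, so the heart muscle markers did not fall as 1 group. Epicardial markers were split, 1 of 3 tested lower and 1 higher, with sums of 20.3 to 21.8 CPM in mutant and 18.6 to 20.7 CPM in control hearts and Upk1b near 0. The part of cell makeup in the receptor changes was not tested.

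Of 30 genes tested that encode the receptors, regulate them or carry their signal, Erbb2 and Erbb3 included, 4 rose, 6 fell and 20 did not pass, with a median log2 fold change of -0.02. The share that passed, 33.3%, is near the 37.5% of all genes. Src, a kinase that acts with ErbB receptors, rose 2.35-fold, to 12.3, 14.1 and 13.7 CPM in mutant hearts, against 5.76, 5.65 and 5.67 CPM in control hearts (edgeR adjusted p = 7.11e-06). Gab1, an adaptor that links ErbB receptors to Ptpn11 and PI3 kinase, rose 1.42-fold. Lrig1, a membrane protein that promotes the loss of ErbB receptors, was 1.498-fold lower, at 33.6 ± 3.56 CPM in mutant hearts and 50.4 ± 1.84 CPM in control hearts (SD, n = 3 each).

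Akt2, a kinase of the PI3 kinase branch known for its place in insulin signalling, was lower in every mutant heart (log2 fold change -0.68 ± 0.06 SE, edgeR adjusted p = 3.63e-05). Smaller falls of Pik3r1 (-0.37), Ptpn11 (-0.31) and Akt1 (-0.27) on the log2 scale passed the test with TMM but not with library totals, where their log2 fold changes were -0.09, -0.03 and 0.02. These 3 were named after their values were seen. With library totals only, 19 of the 30 were higher and 3 lower.

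Of the 3 Hippo kinases among the 10 genes, Lats2 passed the test. Stk3 (ENSMUSG00000022329, chromosome 15, 34875496 to 35178921, minus strand) had 18.00, 16.8 and 15.9 CPM in mutant hearts, against 16.0, 12.4 and 13.1 CPM in control hearts. The groups overlapped through control replicate 1 alone, and the log2 fold change of 0.29 ± 0.10 (SE) lay just outside the threshold (edgeR adjusted p = 0.0538). Without that heart it was 0.40 and passed (0.00920), and it also passed with DESeq2 (adjusted p = 0.0345). With any other heart left out it did not pass, and without control replicate 2 it was 0.22 (adjusted p = 0.194). Its paralogue Stk4 had 34.9, 36.4 and 33.0 CPM in mutant hearts and 31.5, 31.3 and 30.5 CPM in control hearts, and did not pass (log2 fold change 0.16 ± 0.06 SE, edgeR adjusted p = 0.0696).

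Lats1 (ENSMUSG00000040021, chromosome 10, 7681214 to 7716460, plus strand) had 50.2, 47.8 and 45.1 CPM in mutant hearts, against 46.6, 45.7 and 42.0 CPM in control hearts. Its groups overlapped, and its log2 fold change of 0.09 ± 0.07 (SE) did not pass (edgeR adjusted p = 0.338). Lats2 (ENSMUSG00000021959, chromosome 14, 57689662 to 57758388, minus strand), itself a known target of Yap1 and TAZ, had 73.2, 72.7 and 73.8 CPM in mutant hearts, against 63.0, 66.6 and 63.4 CPM in control hearts. The groups did not overlap, and the rise was 1.14-fold (log2 fold change 0.19 ± 0.06 SE, edgeR adjusted p = 0.0279). That call was lost without control replicate 1 (adjusted p = 0.0639), control replicate 3 (0.0724), mutant replicate 2 (0.0777) or mutant replicate 3 (0.0941), with a log2 fold change of 0.17 to 0.19 each time. GENCODE M21 places another gene model of the same strand, Gm49361, over 42.4% of the exon bases of Lats2. Lats2 took 60.6% ± 1.4 of the summed RPKM of Lats1 and Lats2 in mutant hearts and 58.9% ± 1.3 in control hearts (SD, n = 3 each; exact two-sided permutation p = 0.2).

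Of the 15 core kinases and adaptors tested, 5 rose, none fell and 10 did not pass, beside 18.1% and 19.5% of all genes. The list's median log2 fold change was 0.19. The rises besides that of Lats2 were those of Stk38 (1.20-fold), a relative of the Lats kinases, Taok3 (1.24-fold), which acts above Stk3, Sav1 (1.23-fold), the scaffold of Stk3 and Stk4, and Map4k4 (1.16-fold). A gene on the opposite strand covers 25.4% of the exon bases of Sav1. The call of Sav1 was lost without control replicate 3 (adjusted p = 0.0514) or mutant replicate 2 (0.0578). That of Map4k4 was lost without control replicate 1 (0.0586), control replicate 3 (0.106), mutant replicate 2 (0.115) or mutant replicate 3 (0.0674). Only 3 rises passed without control replicate 3 or without mutant replicate 3, and 2 without mutant replicate 2. With library totals only, 14 of the 15 were higher and none lower.

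Of 26 upstream regulators of the kinases tested, 11 rose, 3 fell and 12 did not pass, beside 18.1% of all genes that rose and 19.5% that fell, with a median log2 fold change of 0.20, and with library totals only 20 were higher and 1 lower. Fat1, a giant cadherin, rose 2.35-fold, to 135 ± 4.36 CPM in mutant hearts, against 57.5 ± 3.81 CPM in control hearts (SD, n = 3 each; edgeR adjusted p = 1.58e-06). Strn, a scaffold of the phosphatase complex that counters Stk3 and Stk4, rose 1.602-fold, and Dlg5, a polarity protein, rose 1.55-fold. The 3 Ajuba family genes, whose proteins bind and restrain Lats kinases, all rose, Limd1 1.48-fold, Ajuba 1.64-fold and Wtip 1.53-fold.

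Amot, the angiomotin that holds Yap1 outside the nucleus, was 1.45-fold lower, at 8.82 ± 0.873 CPM in mutant and 12.8 ± 0.261 CPM in control hearts (SD, n = 3 each). Its call was lost on log2(RPKM + 1) (limma adjusted p = 0.0656). The families of Amot, Fat4 and Strn3 each also held a rise. Fat4, a relative of Fat1, had 34.4 ± 3.50 CPM in mutant and 40.6 ± 1.91 CPM in control hearts, with a log2 fold change of -0.24 ± 0.08 (SE, edgeR adjusted p = 0.0466). Strn3, a relative of Strn, had 85.9 ± 8.66 CPM in mutant and 102.4 ± 8.39 CPM in control hearts (SD, n = 3 each), with a log2 fold change of -0.25 ± 0.09 (SE, edgeR adjusted p = 0.0463). Both calls were lost without control replicate 1 (adjusted p = 0.101 for Fat4 and 0.134 for Strn3), control replicate 2 (0.139 and 0.125) or mutant replicate 3 (0.142 and 0.126), that of Fat4 also without mutant replicate 1 (0.0938) and that of Strn3 without mutant replicate 2 (0.151). Both signs turned with library totals only. Of the relatives of Amot, Amotl1 rose 1.22-fold with no overlap, to 164 CPM in mutant hearts, against 134 CPM in control hearts (edgeR adjusted p = 0.00569). Amotl2 rose 1.27-fold, a call lost without control replicate 2 (adjusted p = 0.0566), mutant replicate 2 (0.0594) or mutant replicate 3 (0.0590). Ajuba, Wtip, Amot, Fat4, Strn3, Amotl1 and Amotl2 were named after their values were seen. Without control replicate 1, control replicate 2 or mutant replicate 3, only 1 upstream gene was lower.

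The coactivators themselves did not pass the test. Yap1 (ENSMUSG00000053110, chromosome 9, 7931999 to 8004596, minus strand) had 93.7, 101.9 and 100.1 CPM in mutant hearts, against 105.7, 105.5 and 108.2 CPM in control hearts. The mutant hearts lay just below the control hearts with TMM, with a log2 fold change of -0.11 ± 0.06 (SE, edgeR adjusted p = 0.164), whereas with library totals only the sign turned and it was called higher (0.17, adjusted p = 0.0372). Wwtr1 (ENSMUSG00000027803, chromosome 3, 57455649 to 57575910, minus strand) had 184, 168 and 164 CPM in mutant hearts, against 177, 163 and 150 CPM in control hearts. The groups overlapped, and the log2 fold change was 0.08 ± 0.08 (SE, edgeR adjusted p = 0.461). Yap1 took 22.9% ± 1.8 of the summed RPKM of both coactivator genes in mutant hearts and 25.3% ± 1.8 in control hearts (SD, n = 3 each; exact two-sided permutation p = 0.3), so that Wwtr1 gave the larger part in every heart.

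**Figure D3:**
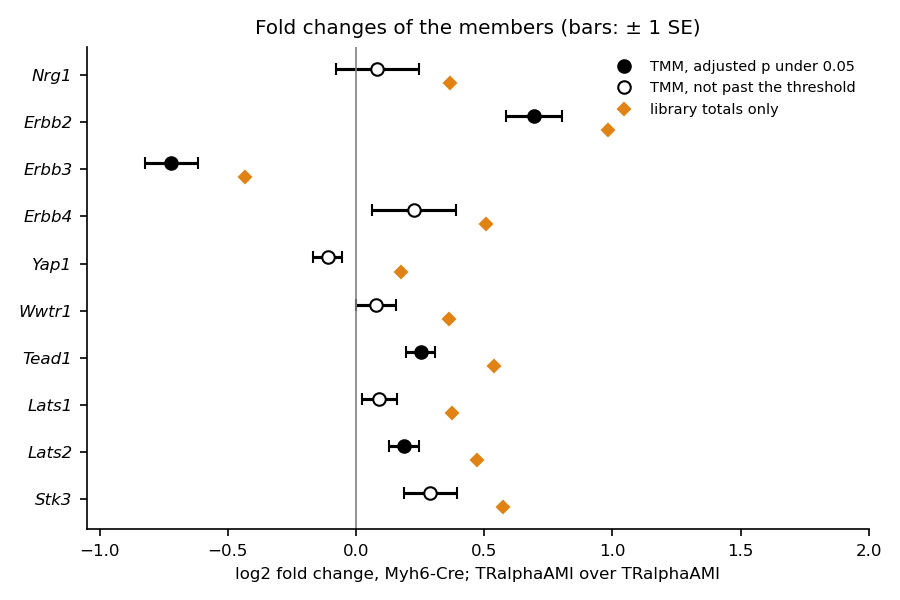
Log2 fold change of Myh6-Cre; TRalphaAMI over TRalphaAMI hearts (horizontal axis) for the 10 genes, from edgeR with TMM (circles with ± 1 SE, filled where the adjusted p is under 0.05) and with library totals only (orange diamonds). Every diamond lies to the right of its circle, by about the 0.28 shift of the median gene, and for Yap1 this changes the sign, from -0.11 to 0.17.

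All 4 TEAD genes passed the test, 3 as higher and 1 as lower. Tead1 (ENSMUSG00000055320, chromosome 7, 112679318 to 112906807, plus strand), the TEAD factor long known in heart muscle, had 306, 319 and 305 CPM in mutant hearts, against 258, 261 and 263 CPM in control hearts. The groups did not overlap, and it rose 1.19-fold (log2 fold change 0.25 ± 0.06 SE, edgeR adjusted p = 0.00602). This is smaller than the 0.28 shift between scalings, though with library totals the value was larger, 0.54.

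Tead3 had 45.5, 53.5 and 55.1 CPM in mutant hearts, against 23.0, 25.9 and 29.4 CPM in control hearts, and rose 1.97-fold (edgeR adjusted p = 7.86e-05). Tead2 had 18.3, 26.3 and 22.2 CPM in mutant hearts, against 11.4, 11.8 and 12.9 CPM in control hearts, and rose 1.85-fold (0.000443). Neither gene's groups overlapped, and the fitted fold changes of both were larger than that of Tead1. Tead4 was the least abundant, with 3.99, 5.20 and 4.03 CPM in mutant hearts and 6.48, 6.05 and 5.33 CPM in control hearts. It was 1.35-fold lower (edgeR adjusted p = 0.0301), a call lost without control replicate 1 (0.0871), control replicate 2 (0.0886), mutant replicate 1 (0.0785) or mutant replicate 3 (0.0916), and with library totals only (0.374).

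Beside the rises of Tead2 and Tead3, Tead1 took a smaller share of the family's RPKM in mutant hearts. Its shares were 59.7%, 55.2% and 55.1% in mutant hearts, against 66.9%, 65.7% and 64.1% in control hearts, with no overlap and a difference of -8.90 percentage points (exact two-sided permutation p = 0.1, the smallest possible, and 0.267 over the 8 shares). That size depends on gene length, since the deposited RPKM implies 4426 bases for Tead3 and GENCODE M21 gives 6714 exon bases. From counts and from GENCODE M21 exon lengths the difference lay between -7.54 and -5.60 percentage points. Vgll4, a competitor of Yap1 for TEAD factors, rose 1.33-fold, to 26.5, 28.9 and 29.6 CPM in mutant hearts, against 21.3, 23.4 and 19.1 CPM in control hearts. Of the 8 tested genes for coactivators, TEAD and VGLL proteins, 4 rose, 1 fell and 3 did not pass, beside 18.1% of all genes that rose and 19.5% that fell, with a median log2 fold change of 0.17. With library totals only, 6 were higher and none lower, and none was lower when any of the 4 hearts named for Tead4 was left out.

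Genes known as targets of Yap1 and TAZ in other cells went both ways. Of 21 tested, 8 rose, 5 fell and 8 did not pass, with a median log2 fold change of 0.04, beside 18.1% and 19.5% of all genes. With library totals only, 13 were higher and 3 lower, and without control replicate 2, 3 were lower. Ankrd1, a stress-responsive gene of heart muscle, had 2849, 2131 and 2179 CPM in mutant hearts, against 576, 659 and 648 CPM in control hearts, a 3.802-fold rise (edgeR adjusted p = 2.69e-06). Ccn2 (connective tissue growth factor) had 152.8, 98.0 and 84.3 CPM in mutant hearts, against 61.9, 52.8 and 62.2 CPM in control hearts, and rose 1.896-fold, with 23.2% of its exon bases over a gene on the opposite strand. The related Ccn1 did not pass, with a log2 fold change of -0.25 ± 0.16 (SE) and, with library totals, 0.04. These 3 are often read out for Yap1 activity, and they did not move as 1 group.

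Ptpn14, a phosphatase that binds Yap1, rose 1.43-fold and Tgfb2, a growth factor, 1.65-fold. Gadd45a, a gene of growth arrest and DNA damage, was 2.59-fold lower, at 4.63 ± 0.639 CPM in mutant hearts and 12.04 ± 1.52 CPM in control hearts (SD, n = 3 each), with 19.1% of its exon bases over a gene on the opposite strand. Nt5e, an enzyme that makes adenosine at the cell surface, was 2.53-fold lower, and the kinase gene Nuak2 1.52-fold lower. Lats2, Ajuba, Amotl2 and Ptpn14 stand in this list and in another one, so the lists are not independent. Ccn1, Ccn2, Tgfb2 and Nuak2 were named after their values were seen.

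Several of these targets are also expressed by cells other than heart muscle. The counts of markers of such cells stand beside 18.1% of all genes tested that were higher and 19.5% that were lower. Fibroblast markers were higher in mutant hearts for 3 of 6, with summed levels of 1542 to 1652 CPM in mutant and 1313 to 1422 CPM in control hearts and none at 0. Smooth muscle and pericyte markers were lower for 2 of 6, the pericyte genes Rgs5 and Kcnj8. The log2 fold changes of these 2 genes, -0.26 and -0.27, were smaller in size than the 0.28 shift between scalings. Sums of the 6 markers were 1519 to 1616 CPM in mutant and 1729 to 1859 CPM in control hearts, and no marker was at 0. Rgs5 alone had means of 1101 CPM in mutant and 1323 CPM in control hearts. Myh11, Acta2, Tagln and Pdgfrb did not pass. Acta2 lay the other way with no overlap, at 229 to 290 CPM in mutant and 173.5 to 228 CPM in control hearts. Red blood cell markers did not pass for any of 5, with sums of 91.2 to 242 CPM in mutant and 157 to 245 CPM in control hearts and none at 0. Their part in the target genes was not tested.

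**Figure D4:**
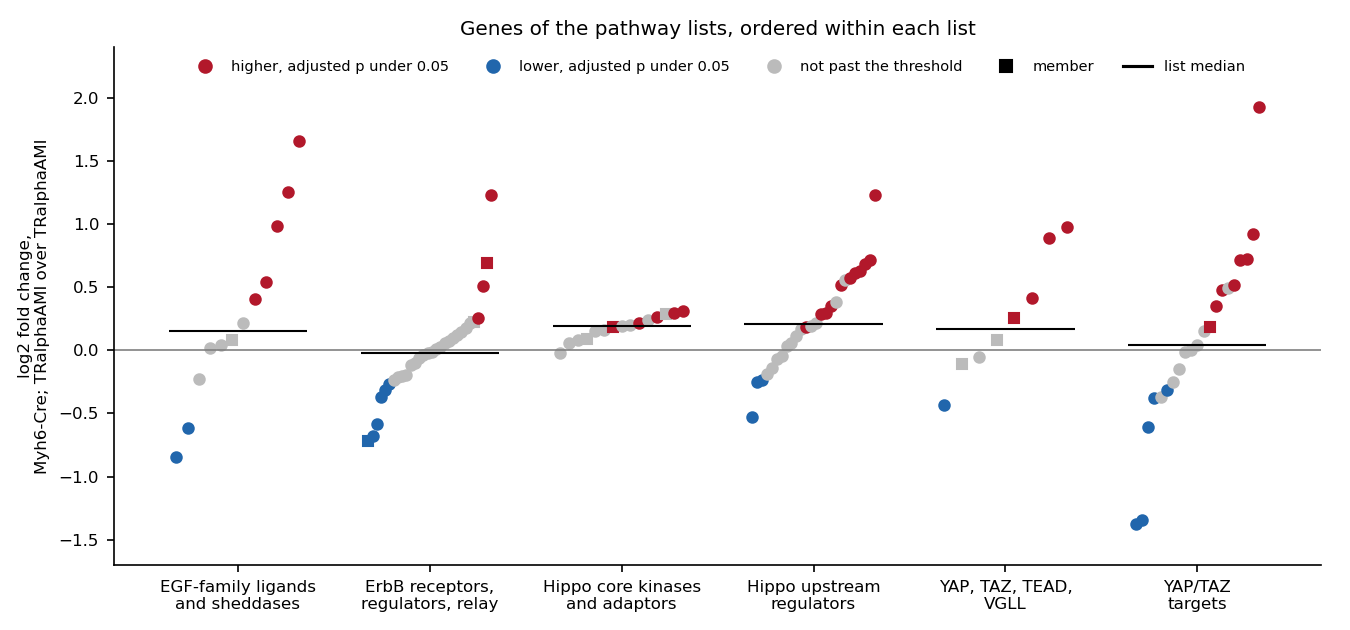
Log2 fold change of Myh6-Cre; TRalphaAMI over TRalphaAMI hearts (vertical axis) for each tested gene of 6 pathway lists, ordered within a list, with squares for the 10 genes described here and a line at each list's median. Ankrd1 is the highest point at 1.93 and Gadd45a the lowest at -1.37, and no core kinase or adaptor passed as lower.

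Per length, the order of the 10 genes was alike in both groups at the top. In deposited RPKM, Wwtr1 was the highest, at 39.5 ± 1.71 in mutant hearts and 30.8 ± 2.57 in control hearts, followed by Tead1 at 25.1 ± 0.800 and 17.3 ± 0.183 and Yap1 at 11.7 ± 0.701 and 10.4 ± 0.132 (SD, n = 3 each). RPKM has no composition scaling, so these values serve to order genes within a group and not to compare the groups. Lats2 (10.996 in mutant and 7.93 in control hearts) came next, with hearts that overlapped those of Yap1 in the mutant group only, and then Lats1 (7.16 and 5.53). In mutant hearts Erbb2 (6.54) came before Stk3 (5.72), while in control hearts Stk3 (3.85) came before Erbb2 (3.31), and the hearts of these neighbours overlapped within both groups.

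The last places also differed. Erbb4 (2.68) lay above Erbb3 (2.15) in mutant hearts, whose values overlapped, and Erbb3 (2.91) lay above Erbb4 (1.89) in control hearts with no overlap. Nrg1 was the lowest in both groups, at 0.233 in mutant and 0.181 in control hearts. The place of Stk3 depends on its length, since the deposited RPKM implies 3257 bases and GENCODE M21 gives 6114 exon bases. With that length of 6114 bases Stk3 would have 3.05 in mutant and 2.05 in control hearts.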

How the data were processed

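Per the labels' protocols, RNA of flash-frozen hearts was extracted with Trizol and made into Illumina TruSeq RNA v2 libraries, a kit that does not mark strand. Per heart, the authors deposited whole-number counts for each Ensembl gene, and RPKM values in which the same counts are divided by gene length and library total. The submitters' processing notes name cutadapt 1.9, STAR 2.5.2b, featureCounts 1.5.1 and mm10, with no role given. The annotation release and strand setting were not given in the sources used here. Symbols and exons came from GENCODE M21, the same build, which matched 20081 of 20121 identifiers.

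Counts were filtered with filterByExpr (edgeR 4.0.16, R 4.3.3), scaled by TMM and tested with the quasi-likelihood F test, with group as the only term. SE is the log2 fold change divided by the square root of F, an approximation. The test was checked on simulated counts. Groups and replicate numbers came from the sample titles. Alternatives were other scalings, DESeq2 1.42.0, limma 3.58.1 on log2(RPKM + 1) and log2(RPKM + 0.1), no filter, a replicate block and each heart left out. The 10 genes and the lists were chosen with earlier results of these data known. From each pathway list, up to 4 called genes outside the 10 with the smallest adjusted p were named, and others where stated.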

Additional observations from a re-analysis of the deposited data

How the results depend on the processing

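Erbb2 and Erbb3 kept their direction and call in every setting run. With library totals only, and with limma on log2(RPKM + 1), on log2(RPKM + 0.1) and on log2(RPKM + 1) without a filter, in that order, 8, 8, 8 and 7 of the 10 genes were higher, and 7479, 7349, 7391 and 6916 of all genes higher and 1207, 1215, 1221 and 1170 lower, against 2688 and 2898 with TMM. In the same 4 settings, 19, 18, 18 and 16 ErbB receptor, regulator and relay genes were higher and 3 lower each time. Of the core kinases and adaptors 14, 14, 14 and 13 were higher. Of the upstream Hippo regulators 20 were higher each time and 1, 0, 0 and 0 lower. Of the coactivator, TEAD and VGLL genes 0 were lower. Of the Yap1 and TAZ targets 3 were lower each time, and 13 were higher with library totals. Without a filter on log2(RPKM + 1), 8 ligand and protease genes were higher. The log2 fold changes that turned positive in these settings were those of Yap1 (0.17, 0.16, 0.17 and 0.16), Egfr (0.18, 0.11, 0.17 and 0.11), Nrg4 (0.0546, 0.0090, 0.0338 and 0.0090), Akt1 (0.0192, 0.0185, 0.0188 and 0.0185), Ccn1 (0.0374, 0.0126, 0.0118 and 0.0126), Fat4 (0.0477, 0.0299, 0.0409 and 0.0299) and Strn3 (0.0292, 0.0257, 0.0273 and 0.0257). These settings lack a scaling for library composition, by construction.

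The sample titles do not say whether same-numbered hearts of the groups are pairs. The correlations of their deviations from the group means were 0.15, -0.05 and 0.10. Between hearts of different numbers they ran from -0.18 to 0.09. These few values cannot settle whether the hearts were paired. With the replicate block, 7 ErbB receptor, regulator and relay genes and 8 core kinases and adaptors were higher, among all genes 3090 were higher and 3229 lower, and Stk3 (adjusted p = 0.0163) and Stk4 (0.0438) passed in edgeR's test.

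With each heart left out in turn, the core list held 2 to 5 higher genes, the upstream list 1 to 3 lower, the coactivator, TEAD and VGLL list 0 to 1 lower and the target list 3 to 5 lower. The log2 fold change ranged from -0.0528 to 0.18 for Nrg1 and from -0.0372 to 0.45 for Nrg2. The difference in share ranged from -2.19 to 2.64 percentage points for Erbb4 and from -1.33 to 3.56 for Nrg1. The causes of these shifts were not tested. Shares from counts, and from GENCODE M21 exon lengths (an alternative added after seeing the data), kept the direction of all 8 shares. With 3 hearts a group, fold changes of Nrg1 and the other rare ligands are the least precise.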

Other observations

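Among the mutant hearts, replicate 1 had the highest CPM of Nrg1 (2.61), Erbb4 (38.6), Wwtr1 (184), Stk3 (18.00), Btc (4.82) and Ccn2 (152.8), and the lowest of Erbb2 (26.2), Yap1 (93.7), Tead2 (18.3) and Tead3 (45.5). These genes were picked after their values were seen, and no test was made. Replicate 1 of the mutant group was also the heart with the highest Ankrd1, at 2849 CPM, against 2131 and 2179 CPM in the other mutant hearts.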
